A study of Mus musculus with 4 samples.

Results

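Neuromodulator receptors are the proteins through which acetylcholine, serotonin, dopamine, histamine, noradrenaline, opioid peptides and endocannabinoids act on neurons. The genes were taken by symbol: every probe set with exactly 1 platform gene symbol starting with Chrm, Chrn, Htr, Drd, Hrh, Adora, Adra, Adrb, Cnr, Oprd, Oprk, Oprl or Oprm and followed by a digit, with the Htra protease genes left out. The nicotinic genes carry a subunit letter after Chrn, and all subunits were kept, including Chrnd, Chrne and Chrng, which have no digit. This gave 34 receptor genes on 39 probe sets, of 8251 genes with 1 symbol in all. No probe set with 1 symbol matched the adenosine (Adora) or the beta-adrenergic (Adrb) prefix, so these families are not analysed here. Each gene is described by its probe set with the highest mean log2 signal over the 4 arrays, and the further probe sets of Chrne, Chrng and Htr4 are given beside it.

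RNA came from hippocampal area CA1 of young male C57BL/6J mice, with 4 samples on 4 Affymetrix arrays. All 4 were controls: the mice were handled by an experimenter and given no other treatment, and RNA was taken 1, 2, 4 or 6 h after other mice had their last shock. Each hour had 1 sample, so a difference between 2 hours has no replicate check, and a mean ± SD below is the spread over 4 arrays of different hours. How many mice a sample pools is not stated.

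Most of these receptors couple to G proteins. Gq-coupled receptors such as Chrm1 and Hrh1 act through phospholipase C, Gs-coupled ones such as Htr4, Htr7 and Hrh2 raise cyclic AMP, and Gi-coupled ones such as Htr1a, Drd2 and the opioid receptors lower it. The nicotinic receptors and Htr3a are instead ligand-gated ion channels. In CA1, acetylcholine and serotonin reach pyramidal cells and interneurons through fibres from the septum and the raphe nuclei, so the enzymes that make these ligands are expressed largely in cell bodies outside the dissected tissue.

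A gene was called past the filter when its mean log2 signal reached the pooled 40th percentile of all values, a signal of 116.4. This held for 17 of the 34 receptor genes, against 67.2% of all genes (5546 of 8251). By ligand these were 7 of 11 serotonin, 4 of 10 acetylcholine, 2 of 3 dopamine, 2 of 2 histamine, 1 of 2 noradrenaline, 1 of 4 opioid-family and 0 of 2 cannabinoid receptor genes. By type they were 7 of 16 Gi-coupled, 2 of 5 Gq-coupled and 3 of 3 Gs-coupled receptor genes, 4 of 9 ion channel subunit genes, and Htr5b. With the mean of all probe sets of a gene in place of the brightest, 15 passed, and Chrne and the Gs-coupled Htr4 did not. Nearest above the threshold was Chrna6, with a mean log2 equal to a signal of 119, and nearest below it was Htr1b, with 95.8. The signals of 11 receptor genes lay above 116.4 on all 4 arrays. Another 4 genes, Chrm1, Htr1a, Drd2 and Chrna6, passed only with a particular array in the mean: without the 2 h array Chrm1 and Htr1a did not pass, without the 1 h array Drd2 did not, and Chrna6 needed both the 2 h and the 4 h arrays. The other 13 passed whichever array was left out, as did 64.3% of all genes. The filter marks signal, not expression: of 7 skeletal muscle markers measured, 5 passed it, among them Acta1 with 225, 155, 300 and 253 at 1, 2, 4 and 6 h.

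Of the 34 genes, 27 have RefSeq promoter entries (build GRCm38.p6), with 40 start sites. Below are the 250 bases before the start of Chrna7 (chr7:63212527-63212776, minus strand) and Htr1a (chr13:105443443-105443692, plus strand), whose signals differed widely between arrays, and of Htr5a (chr5:27841697-27841946, plus strand), whose signals differed least. They are written 5′ to 3′, and capitals mark a GC box (GGGCGG on either strand) or an EGR element (GCGGGGGCG on either strand).
Chrna7: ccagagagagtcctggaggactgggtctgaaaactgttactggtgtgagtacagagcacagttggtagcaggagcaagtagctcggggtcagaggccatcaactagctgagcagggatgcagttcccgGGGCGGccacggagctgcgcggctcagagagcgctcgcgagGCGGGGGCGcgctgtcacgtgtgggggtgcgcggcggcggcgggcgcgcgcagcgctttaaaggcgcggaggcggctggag
Htr1a: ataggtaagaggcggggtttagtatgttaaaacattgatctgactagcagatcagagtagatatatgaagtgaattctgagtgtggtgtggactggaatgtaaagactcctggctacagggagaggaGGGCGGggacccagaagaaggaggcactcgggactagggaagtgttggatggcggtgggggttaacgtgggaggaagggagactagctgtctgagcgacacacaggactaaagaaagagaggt
Htr5a: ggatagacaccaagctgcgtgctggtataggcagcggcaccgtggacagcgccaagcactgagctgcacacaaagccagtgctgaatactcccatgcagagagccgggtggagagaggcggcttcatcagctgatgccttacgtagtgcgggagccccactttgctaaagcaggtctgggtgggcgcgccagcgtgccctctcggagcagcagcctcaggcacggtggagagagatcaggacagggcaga
The Chrna7 stretch holds 1 GC box and 1 EGR element and is 67.2% G and C with 25 CpG dinucleotides. That of Htr1a holds 1 GC box and no EGR element, with 50.4% G and C and 6 CpG. That of Htr5a holds neither, with 62.0% G and C and 13 CpG. A GC box lay in 15 of the 40 receptor promoters against 32.7% of all promoters of this length, and an EGR element in 1 against 2.57%. The core of the cyclic AMP response element (TGACG on either strand) lay in 3 of the 40, against 17.8% of all. Median G and C content was 55.2% for the receptor genes and 52.4% for all. Such matches are descriptions of letters and not binding sites.

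The 2 h array stood apart from the other 3 over all genes, and this touches every 2 h value below. The SD of the log2 difference over 7237 probe sets was 0.62 to 0.66 for pairs with the 2 h array and 0.54 to 0.55 for the others. Gapdh signal was 1.08 times as high at the 3′ as at the 5′ end at 2 h, and 3.62 to 4.10 times on the other arrays. Whether this moved the receptor signals was not tested. In bulk tissue, fewer cells that express a gene and less RNA per cell cannot be told apart.

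Of the muscarinic receptors, Chrm1, the main Gq-coupled muscarinic receptor of hippocampal pyramidal cells, had signals of 45.4, 704, 180 and 151 at 1, 2, 4 and 6 h. The 2 h array was the highest and the 1 h array the lowest, each at least 2-fold from the other 3. Against 1 h, the log2 difference was 3.95 at 2 h, 1.98 at 4 h and 1.73 at 6 h. Its 1 h signal lay within 2-fold of 36.8, the floor below which values were set equal, and with the floor at the 30th percentile the differences were 3.33, 1.36 and 1.11. The gene has 1 probe set. Chrm4, a Gi-coupled muscarinic receptor, was not past the filter and had 27.8, 71.5, 184 and 43.9.

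Chrna7, the subunit of the homomeric, calcium-permeable nicotinic receptor found on hippocampal interneurons, had signals of 58.3, 439, 271 and 384. The 1 h array lay at least 4-fold below each of the others, which spanned 271 to 439. The log2 differences from 1 h were 2.91, 2.22 and 2.72, and 2.65, 1.96 and 2.46 with the floor at the 30th percentile. Chrna6, best known from midbrain dopamine neurons, had 98.3, 132, 143 and 109, a range of 1.45-fold. Chrnb2, which pairs with alpha subunits in the widespread high-affinity brain receptor, was not past the filter, with 101, 51.6, 55.3 and 54.8.

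The muscle nicotinic subunits gave mixed and mostly low signals. Chrne, the subunit of the adult neuromuscular junction, passed through a probe set whose name (_r_at) marks relaxed rules of probe selection, with 114, 160, 331 and 151. Its other probe sets did not repeat this, with 37.9, 48.1, 38.7 and 33.8 on one and 20.1 to 35.9 on the other. Chrng, the fetal counterpart of Chrne, had 52.8, 175, 80.5 and 61.3 on its brighter probe set and 74.2, 109, 42.9 and 36.7 on the dimmer. Chrna1 had 160, 29.0, 71.2 and 28.4, and Chrnd had 44.6, 30.4, 150 and 150. Chrnb1 had 15.8 to 36.9. None of Chrng, Chrna1, Chrnd and Chrnb1 was past the filter. Muscle marker genes summed to 889, 923, 1235 and 1094. Singly they differed in direction: Myh4 had 43.0, 237, 198 and 190, Ckm had 226, 160, 70.5 and 226, and Myog had 114, 142, 354 and 116. The Myh4 values come from an _r_at probe set, and its other probe set had 3.0, 6.8, 61.4 and 5.7. The other probe set of Ckm had 37.6, 19.1, 69.9 and 50.7, highest at 4 h, where the brighter one was lowest. The part of muscle tissue in these signals was not tested.

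**Figure D1:**
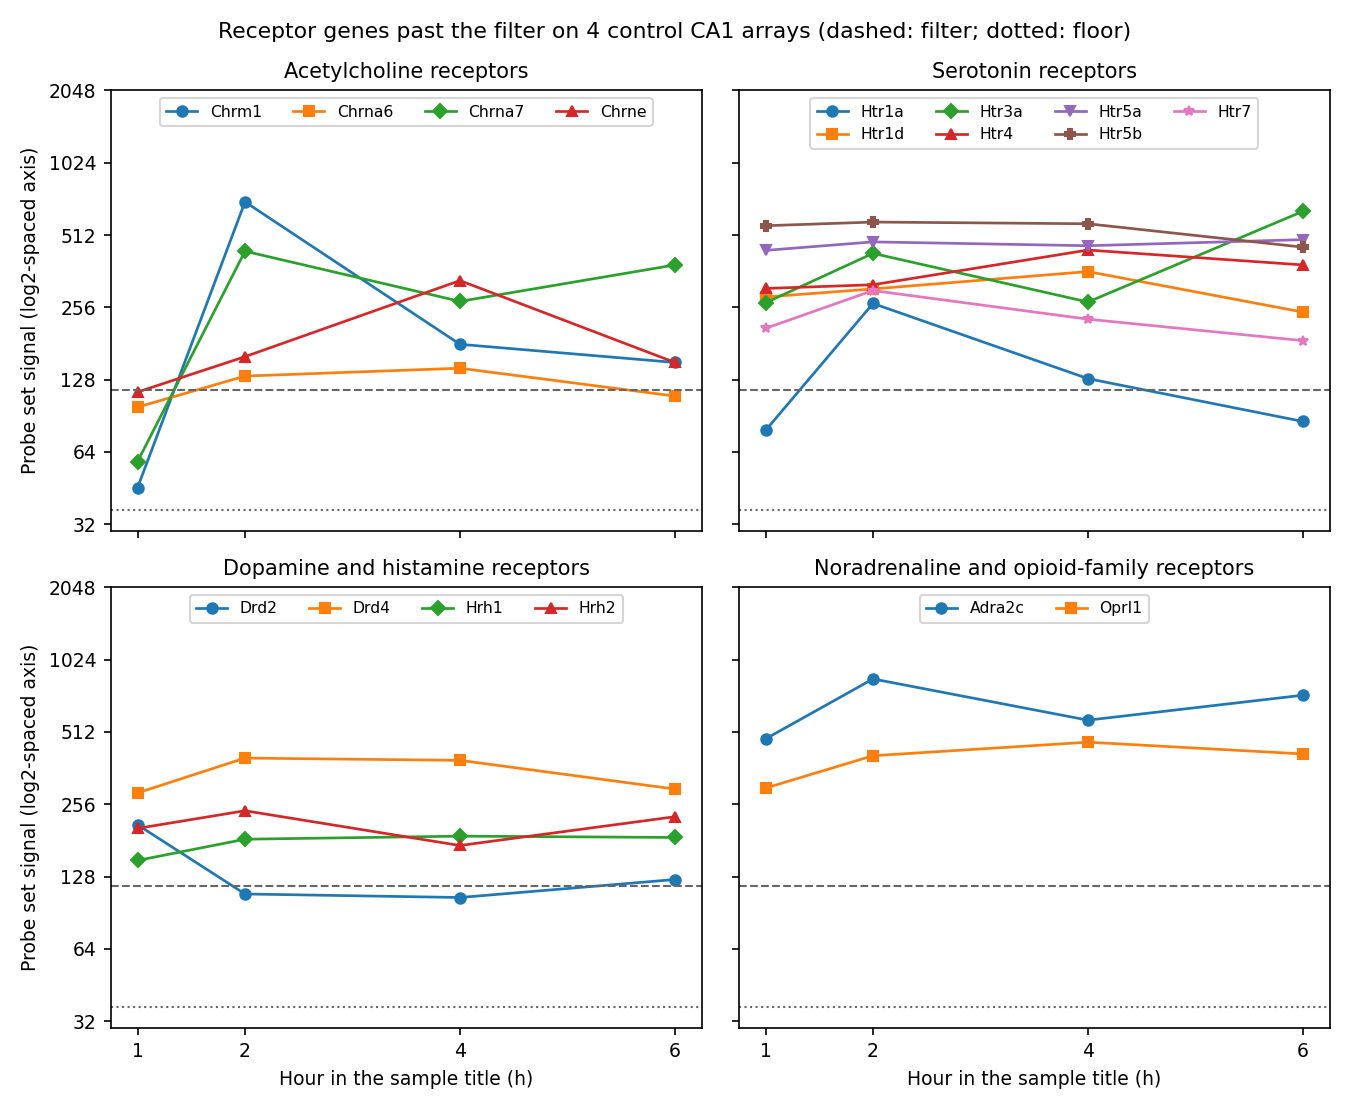
Signal of the 17 receptor genes past the filter (y axis, log2-spaced, linear signal units) on the 4 arrays by hour (x axis), in panels by ligand. Lines join the 4 arrays of a gene, the dashed line is the filter at 116.4 and the dotted line the floor at 36.8. Chrm1 and Chrna7 start at 45.4 and 58.3 at 1 h, whereas Htr5a stays between 442 and 490.

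Of the serotonin receptor genes 7 of 11 were past the filter, against 67.2% of all genes. Htr1a, a Gi-coupled receptor that hyperpolarises CA1 pyramidal cells by opening potassium channels, had 78.6, 266, 129 and 85.7. Its 2 h signal was 2.06-fold above the next highest array, and its log2 difference between 2 h and 1 h was 1.76. Htr3a, the subunit of the serotonin-gated ion channel, which is found on interneurons, had 267, 430, 269 and 643. The 6 h array was the highest, with a log2 difference from 1 h of 1.27, and the 1 and 4 h arrays were nearly equal.

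The remaining serotonin receptors past the filter varied less. The Gs-coupled receptors Htr4 and Htr7 had 307, 318, 444 and 385, and 209, 301, 229 and 186, respectively. The further probe sets of Htr4 were not past the filter and had 56.1, 26.1, 84.3 and 107 on one and 7.9 to 20.5 on the other. Htr1d, a Gi-coupled receptor known as an autoreceptor on axon terminals, had 283, 305, 361 and 245. Htr5a, a Gi-coupled receptor, had 442, 480, 462 and 490, a mean of 468 ± 21.0 (SD, n = 4) and the narrowest range of the 17 genes, 1.11-fold. Htr5b, its rodent paralogue, had 560, 580, 571 and 456, a mean of 542 ± 57.7 (SD, n = 4), with the 6 h array below the other 3. Its range was 1.27-fold.

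The other 4 serotonin receptor genes were not past the filter. Htr1b, a Gi-coupled presynaptic receptor, had 204, 178, 34.8 and 63.0, so that the 1 and 2 h arrays lay above 116.4 and the 4 and 6 h arrays below it. Htr1f had 17.2, 49.4 and 95.1 at 2, 4 and 6 h and less than 17.2 at 1 h, and Htr2b had 72.6, 36.1, 25.8 and 19.3. Both series are ordered by hour, but each has at least 2 values at or under the floor. Htr2c, a receptor abundant in choroid plexus, had 9.7 to 39.6, with 3 arrays under the floor. The 5 choroid plexus markers measured summed to 933, 1895, 729 and 1198, and their transcript Ttr had 222, 892, 108 and 356. Igfbp2 was also highest at 2 h, with 317, 711, 332 and 350, whereas Kl was lowest there, with 309, 178, 183 and 271. Their part in the receptor signals was not tested.

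Among the dopamine receptors, Drd2 had 210, 108, 105 and 124. The 1 h array was the highest, and the log2 differences from it were -0.96, -1.01 and -0.76 at 2, 4 and 6 h. Drd2 is best known from striatal and midbrain neurons, and the 5 striatal markers measured summed to 3423, 2921, 3757 and 4002. Drd4, a Gi-coupled receptor, had 285, 399, 390 and 296, a mean of 343 ± 60.1 (SD, n = 4). Drd3 was not past the filter, with 20.9, 99.1, 29.9 and 43.8.

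Both histamine receptors measured were past the filter on every array. Hrh1, which is Gq-coupled, had 149, 183, 189 and 186, a mean of 177 ± 18.4 (SD, n = 4), with the 1 h array below 3 nearly equal ones. Hrh2, which is Gs-coupled, had 203, 241, 172 and 227, a mean of 211 ± 29.9 (SD, n = 4).

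Of the adrenergic receptors, Adra2c, a Gi-coupled receptor, had 479, 852, 574 and 729, a mean of 658 ± 165 (SD, n = 4). The 1 h array was the lowest and the 2 h array the highest, 1.78-fold above it. Adra1b, a Gq-coupled receptor, was not past the filter, with 121 at 1 h and 46.5, 41.8 and 39.3 on the other arrays.

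In the opioid family, Oprl1, the nociceptin receptor, had 299, 408, 464 and 415, a mean of 396 ± 69.7 (SD, n = 4), with the 1 h array the lowest. Its probe set name marks probes shared between transcripts (_s_at). The classical opioid receptors were not past the filter. Oprk1, the kappa receptor, had 115, 34.6, 81.6 and 112, and Oprd1, the delta receptor, had 23.6, 19.8, 199 and 58.1. Oprm1, the mu receptor, had 4.9, 41.7, 13.3 and 13.6, with 3 arrays under the floor.

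Neither cannabinoid receptor gene was past the filter. Cnr1, which sits on the axon terminals of cholecystokinin interneurons and curbs transmitter release there, had 18.9, 62.4, 34.3 and 26.6, with only the 2 h array above the floor. Cck, the gene of the peptide that names those interneurons, had 15157, 15738, 13821 and 12095. Which cells of the bulk tissue gave this signal was not tested. A low signal of 1 probe set does not show that the transcript was absent, because binding strength varies from probe set to probe set. Cnr2, the receptor of immune cells, had 4.7 to 23.4 and lay under the floor on all 4 arrays.

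**Figure D2:**
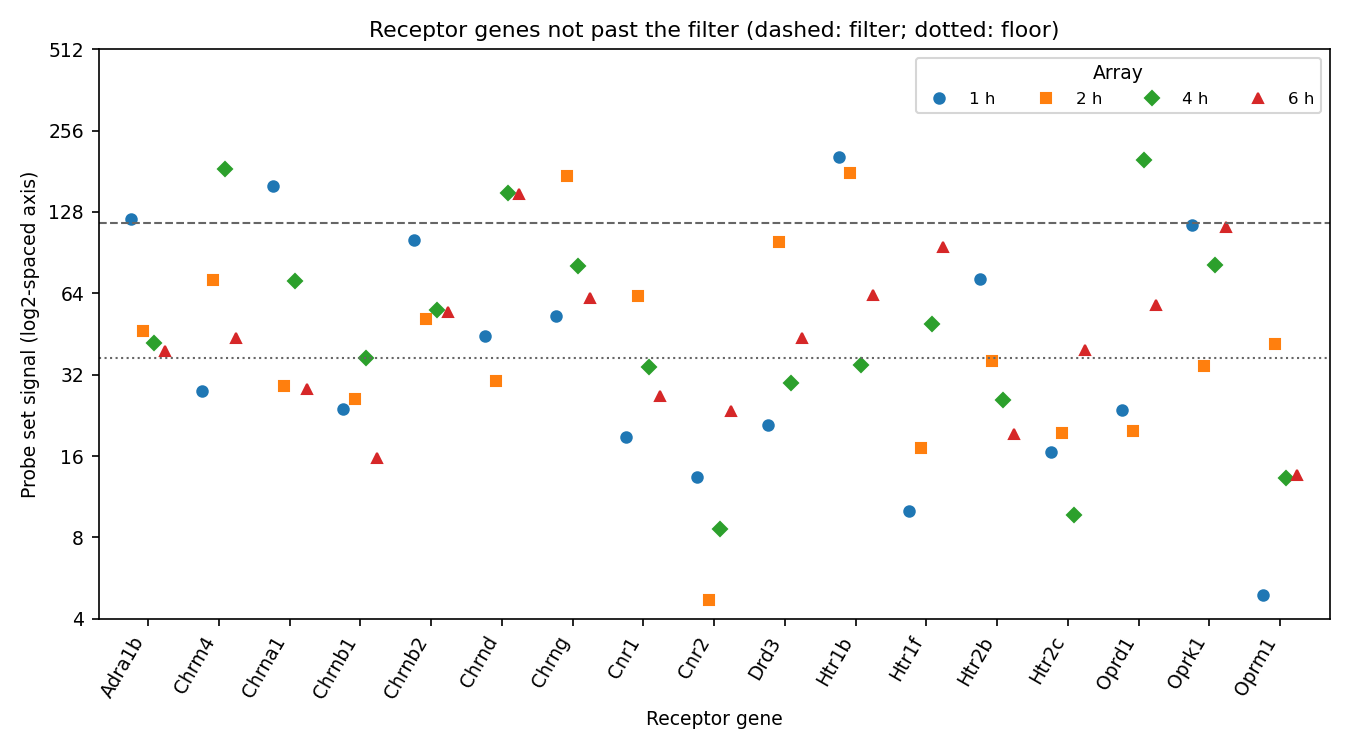
Signal (y axis, log2-spaced, linear signal units) of the 17 receptor genes not past the filter, in alphabetical order, with a point for each array. The dashed line is the filter at 116.4 and the dotted line the floor at 36.8. Of these genes 7 had at least 1 array above the filter signal, and Cnr2 had none above the floor.

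The design allows a test of a straight trend over the hours. In limma's fit over 7237 probe sets, with Benjamini-Hochberg adjustment, 0 of the 17 receptor genes passed (background 0%), and each had an adjusted p of 0.9996. Without adjustment, 0 of 17 again had a p below 0.05, against 2.71% of all probe sets. The steepest upward slope was that of Chrna7, 0.37 ± 0.20 log2 per hour (SE, 4 arrays), and the next that of Htr3a, 0.18 ± 0.10. The steepest downward slopes were those of Drd2, -0.11 ± 0.14, and Htr1a, -0.09 ± 0.18. In all, 10 slopes were above 0 and 7 below, with a median of 0.02, and the median over all genes was 0.01. Without the 2 h array Chrna7 alone passed, with a slope of 0.56 and an adjusted p of 0.0194 in limma, in a fit that called 0.442% of all probe sets from 1 residual degree of freedom, where limma's shared estimate of the spread replaced each probe set's own. Without the 1 h array its slope was -0.05 (adjusted p = 0.939 by limma). A straight line cannot judge a difference at 1 hour alone.

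**Figure D3:**
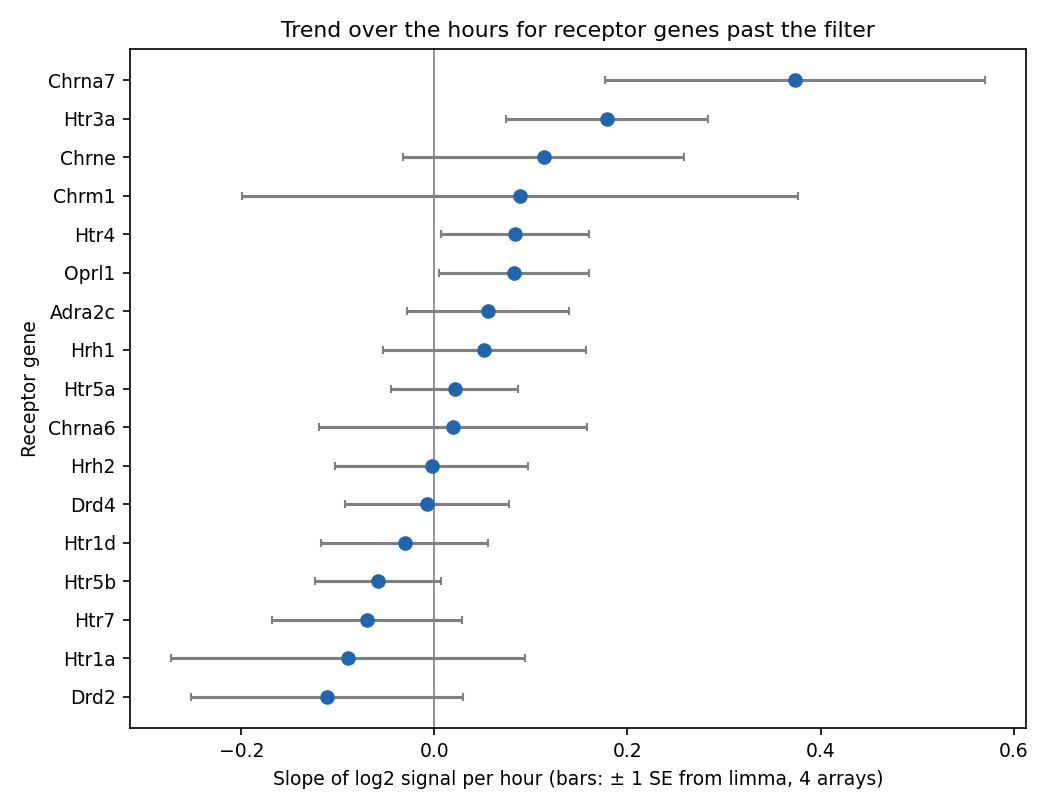
Slope of log2 signal per hour (x axis) for the 17 receptor genes past the filter (y axis, ordered by slope); bars are ± 1 SE from limma over 4 arrays. Chrna7 lies at 0.37 and Drd2 at -0.11, and no slope passed the adjusted threshold.

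Most receptor genes past the filter had a higher signal on the later arrays than at 1 h. The 3 comparisons share the 1 h array and are not independent of each other. At 2 h 16 of 17 were higher, against 48.8% of all genes, at 4 h 15 of 17 against 50.7%, and at 6 h 13 of 17 against 51.9%. Drd2 was lower on all 3 arrays, Hrh2 at 4 h, and Htr1d, Htr5b and Htr7 at 6 h. The lowest signal was at 1 h for 12 of 17, against 24.6% of all genes. The median log2 difference was 0.45, 0.35 and 0.16 at 2, 4 and 6 h for the receptor genes and -0.01, 0.01 and 0.02 for all genes. Among the 3212 genes in the same range of mean signal, 53.7%, 53.3% and 55.3% were higher than at 1 h, and the 1 h array was the lowest in 27.4%. For Chrm1, Htr1a, Chrna6 and Drd2, passing the filter rested on arrays where they were high. Of the 13 genes that passed whichever array was left out, 13, 12 and 10 were higher, and 9 were lowest at 1 h. The shares among all 5306 genes that passed in this way were not counted, so these 13 have no matching background. With no filter, a gene tied with the 1 h array at the floor counted as not higher. In this setting 21, 21 and 20 of 34 were higher, against 45.7%, 48.2% and 48.9% of all genes. The median at 2 h relative to that of all genes was then 0.15, and 0.46 with the filter. When each array was centred on its median, the median of all genes moved to -0.14, -0.10 and -0.12, and 12, 12 and 11 of 17 receptor genes were higher at 2, 4 and 6 h, against 38.9%, 39.5% and 36.2% of all genes. The 1 h array was then the lowest for 7 of 17, against 16.05%. Centring shifts all genes of an array alike. Relative to the median of all genes, the median of the receptor genes at 2 h was 0.46 as deposited and 0.36 after quantile normalization. No test of this shared direction was made, since each hour has 1 array.

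**Figure D4:**
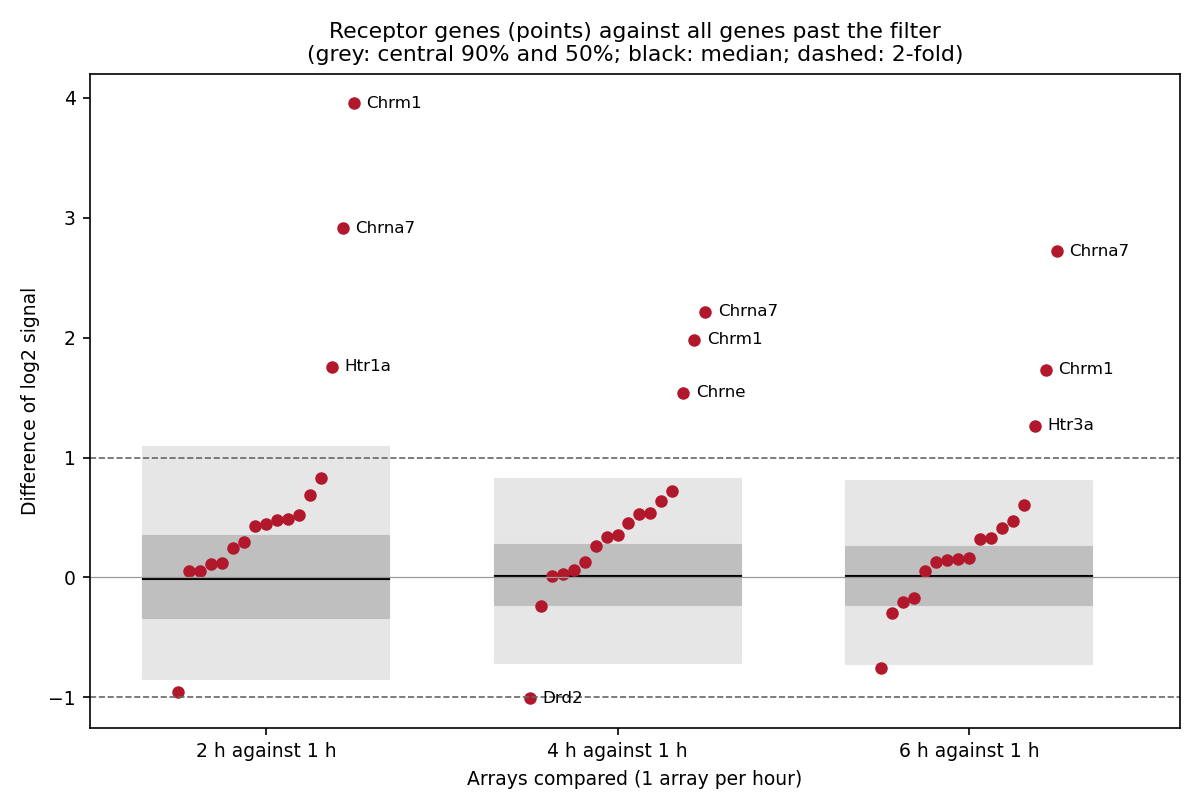
Difference of log2 signal from the 1 h array (y axis) at 2, 4 and 6 h (x axis) for the 17 receptor genes past the filter (red points) over all 5546 genes past it (grey bands, the central 90% and 50%; black line, the median). Dashed lines mark 2-fold. Chrm1, Chrna7 and Htr1a lie above 2-fold at 2 h, and only Drd2 reaches 2-fold lower, at 4 h.

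Differences of 2-fold or more from 1 h were found for Chrm1, Chrna7, Htr1a, Chrne, Htr3a and Drd2. At least 2-fold higher than at 1 h were Chrm1, Chrna7 and Htr1a at 2 h (3 of 17, against 5.7% of all genes), Chrm1, Chrna7 and Chrne at 4 h (3 of 17, against 3.05%) and Chrm1, Chrna7 and Htr3a at 6 h (3 of 17, against 3.26%). At least 2-fold lower were 0 of 17 at 2 h (against 2.98%), Drd2 at 4 h (1 of 17, against 2.42%) and 0 of 17 at 6 h (against 2.69%). Of the 3212 genes in the same signal range, 7.78%, 4.95% and 5.23% were at least 2-fold higher at 2, 4 and 6 h. In that set 3.67%, 3.74% and 4.36% were at least 2-fold lower. The 2 h signal was at least 2-fold above each other array for Chrm1 and Htr1a (2 of 17, against 1.37%) and at least 2-fold below each for 0 of 17 (against 0.956%). Chrm1 and Htr1a passed the filter only with the 2 h array in the mean, and Drd2 only with the 1 h array, so their high values there also brought them into the count. Among the 13 genes that passed whichever array was left out, 1 was at least 2-fold higher at 2 h, 2 at 4 h and 2 at 6 h, and 0 were at least 2-fold lower at 4 h. The shares among all 5306 genes that passed in this way were not counted. The 1 h signal was at least 2-fold below each other array for Chrm1 and Chrna7 (2 of 17, against 1.14%). The same 2 genes were those with a range of at least 4-fold (background 3.7%, and 5.60% of the 3212 genes). In contrast, 8 of 17 stayed within 1.5-fold (background 48.8%, and 35.6% of the 3212 genes): Chrna6, Drd4, Hrh1, Hrh2, Htr1d, Htr4, Htr5a and Htr5b. With a filter at the 60th percentile, 8 receptor genes passed, all among the 17, and only Htr3a at 6 h differed by 2-fold.

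Genes of ligand synthesis, transport and breakdown, cholinergic regulators, and receptor kinases, arrestins and scaffolds were described from 5 lists of 83 genes. Of the 54 measured, 40 were past the filter. Limma's slope test called 0 of the 40 after Benjamini-Hochberg adjustment, and 4 (Entpd2, Pnmt, Spr and Th) had an unadjusted p below 0.05, against 2.71% of all probe sets. At least 2-fold higher than at 1 h were 6 at 2 h (against 5.7% of all genes), 6 at 4 h (against 3.05%) and 3 at 6 h (against 3.26%). At least 2-fold lower were 1 (against 2.98%), 2 (against 2.42%) and 3 (against 2.69%). Ache, which breaks down acetylcholine, was the 1 of 5 cholinergic genes to differ by 2-fold, with 467, 956, 432 and 645. The vesicular acetylcholine transporter Slc18a3, a marker of cholinergic cells, had 14.4 to 41.0 and was not past the filter.

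Among 11 monoamine genes past the filter, Th, the rate-limiting enzyme of catecholamine synthesis, had 17.5, 155, 239 and 268. Its 1 h value lay under the floor and the other 3 above the filter signal, with the 1 h array the lowest, as for Chrm1 and Chrna7. The noradrenaline transporter Slc6a2 had 79.0, 156, 473 and 126, but 199, 53.8, 219 and 50.8 on its dimmer probe set. Pnmt, which makes adrenaline, had 418, 361, 332 and 102, but 78.3, 423, 139 and 300 on the other probe set. Spr, which makes the cofactor of Th, had 335, 529, 338 and 53.9. Aldh2, an aldehyde dehydrogenase, had 297, 640, 469 and 367 on its brightest probe set and 148, 454, 350 and 337 on the second, but 186, 189, 123 and 333 on the third. Aanat, an enzyme of melatonin synthesis, had 667, 146, 677 and 484, but 71.4, 55.3, 25.1 and 16.6 on its dimmer probe set.

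Among 7 adenosine genes, the nucleoside transporter Slc29a1 had 79.1, 226, 220 and 205, and 77.7, 180, 94.0 and 124 on its dimmer probe set, with the 1 h array the lowest on both. Entpd2, which breaks down extracellular ATP, had 430, 490, 165 and 194, but 82.3, 26.3, 13.9 and 102 on its dimmer probe set. Among 8 genes of opioid peptides and endocannabinoid enzymes, the prodynorphin gene Pdyn had 85.8, 216, 178 and 274, while its dimmer probe set lay under the floor on all 4 arrays. The proopiomelanocortin gene Pomc had 58.2, 258, 262 and 50.7, and the prohormone convertase gene Pcsk1 had 120, 61.2, 267 and 129. The endocannabinoid hydrolases Faah and Mgll had 925, 985, 1246 and 1013, and 1426, 1232, 1141 and 1059. Both stayed within 1.5-fold, beside a signal of Cnr1 near the floor. Among 9 receptor kinases, arrestins and scaffolds, only Arrb1, a beta-arrestin that ends receptor signalling, differed by 2-fold, with 1005, 530, 460 and 615, but 587, 1004, 484 and 424 on its dimmer probe set.

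Markers of the tissue and its neighbours are given as sums over the probe sets of each list, which bright probe sets dominate. The 4 CA1 pyramidal markers measured summed to 7121, 6584, 6719 and 7586, with Wfs1 at 2293, 1877, 2484 and 2508. The 11 interneuron markers summed to 43539, 39829, 42328 and 41125. The interneuron gene Gad2, however, had 19.2, 160, 295 and 141, with the 1 h array under the floor, while Gad1 had 4518, 4263, 4088 and 4219. The 7 medial habenula and thalamus markers summed to 1991, 2905, 2264 and 1670, highest at 2 h. Among them Ramp3 had 57.4, 410, 217 and 207, lowest at 1 h and highest at 2 h as Chrm1 and Chrna7 were. Prkcd was also lowest at 1 h and highest at 2 h, with 407, 625, 423 and 565. In contrast, Tac2 had 242, 236, 176 and 163 and Calb2 had 353, 330, 94.4 and 73.5, both highest at 1 h. Tcf7l2, Lef1 and Rora were lowest at 6 h, with 321, 224 and 116 there. The dimmer probe sets of Prkcd, Tcf7l2 and Lef1 did not repeat this, and that of Rora lay under the floor. The 5 dentate granule markers summed to 1928 to 2410 and the 4 CA3 pyramidal markers to 1814 to 2575. Glial and vascular sums lay at 19257 to 20958 for 6 astrocyte, 20720 to 26807 for 6 oligodendrocyte, 6354 to 7340 for 8 microglia and 3350 to 4299 for 7 endothelium and blood markers. The part of these tissues in the receptor signals was not tested.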

How the data were processed

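Each sample was 1 array, and the groups were the hours in the titles, 1 array per hour. The deposited values are 1 linear intensity per probe set and array; the software that made them is not stated. The trimmed means of the 4 arrays (2% at each end removed) differed by 0.0752%, so the authors appear to have scaled the arrays to one mean, and the values were used as deposited. Values under the pooled 20th percentile (36.8) were raised to it before taking log2. The 66 manufacturer controls were left out, and probe sets with a mean at or above the pooled 40th percentile (116.4) were tested. Symbols came from the platform annotation, updated through gene identifiers for 10817 of 10833 probe sets with 1 symbol; 396 had several. Probe sets differ in binding strength, so levels of different genes were not tested against each other; the filter, the choice of a gene's brightest probe set and the marker sums do depend on those levels. Slopes were fitted with limma 3.58.1 in R 4.3.3 (mean-dependent prior, 2 residual degrees of freedom, two-sided, Benjamini-Hochberg at 0.05), tested on simulated data. Differences between hours were counted at 2-fold with no test. All receptor genes are named; of the ligand and regulator lists, the genes past the filter and at least 2-fold from 1 h; of marker lists, those needed among the first 3. Slc18a3, Faah, Mgll, Cck, Ramp3, Prkcd, Lef1, Rora, Igfbp2 and Myog were picked after their values were seen. The receptor genes and lists were chosen with earlier results of these data known. Alternatives covered scaling, floor, filter, probe sets, time scale, prior, fold, reference and leaving out arrays. Tables and plots used Python 3.11.15 with pandas 2.3.3. The number of arrays limits the precision.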

Additional observations from a re-analysis of the deposited data

Results flagged for a closer look

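Over the 4 control arrays taken as one set, 2 of 17 receptor genes past the filter had an array whose gap to the nearest other was large against the whole range, above Dixon's critical value for 4 arrays. For Hrh1 this was the 1 h array, at 149 below 183 to 189 (ratio 0.873), and for Htr5b the 6 h array, at 456 below 560 to 580 (ratio 0.854). Of all 5546 genes past the filter 6.02% had such an array, and chance alone gives about 1 in 20. Both ranges were narrow, 1.26-fold for Hrh1 and 1.27-fold for Htr5b. Chrna7 came next on the low side, with a ratio of 0.762 for its 1 h array, below that critical value.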

How the results depend on the processing

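No paired analysis was possible because each hour has 1 array. All 10 differences of at least 2-fold kept their direction in the 69 values recomputed. Many of these could not change, because a lower floor, another filter or the digit rule left the values as they were. The mean of all probe sets changes only genes with further ones. Chrne then failed the filter, so its difference was not recomputed. The counts that follow are of receptor genes. Those at 1.5-fold, 2-fold and 3-fold were not counted over all genes in these settings, so they have no background here. Under quantile normalization and under median centring, 1 was at least 2-fold lower at 2 h. Under centring 7 were lowest at 1 h, against 16.05% of all genes. Without the filter all 34 entered. Of these 5, 6 and 5 were at least 2-fold higher and 3, 4 and 3 lower at 2, 4 and 6 h. By any amount 21, 21 and 20 were higher, against 45.7%, 48.2% and 48.9% of all genes, with ties at the floor counted as not higher. At 2 h 4 stood 2-fold above and 1 below each other array. With the filter at the 60th percentile 8 remained. Of these 0, 0 and 1 were at least 2-fold higher at 2, 4 and 6 h, and 0 lower at 4 h. At 2 h 0 stood 2-fold above each other array. By any amount 8, 8 and 6 were higher, against 45.94%, 48.16% and 50.15% of all genes. The 1 h array was the lowest for 6, against 23.06%. Against the mean of the other 3 arrays, 1 was 2-fold higher and 0 lower at 4 h. At 1.5-fold, 5 were higher and 1 lower at 2 h, 5 higher at 4 h and 1 lower at 6 h, and at 3-fold 0 were lower at 4 h. Among the 13 genes past the filter whichever array was left out, an alternative chosen after seeing the data, 1 was 2-fold higher at 2 h, 0 were lower at 4 h and 0 stood 2-fold above each other array at 2 h. Leaving out an array left 14 to 17 past the filter and called 0 to 1 slopes.

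Of 210 recomputed slopes, 21 changed sign, all of slopes that had not passed. In log2 per hour, Chrna6 had -0.012 under quantile normalization and -0.0013 under centring, Chrm1 -0.0058 with the floor at the 30th percentile, and, per rank of the hour, Drd4 0.013 and Hrh2 0.00044. With each array left out in turn, slopes ran from -0.056 to 0.12 for Adra2c, -0.56 to 0.43 for Chrm1, -0.069 to 0.16 for Chrna6, -0.048 to 0.58 for Chrna7, -0.020 to 0.52 for Chrne, -0.29 to 0.050 for Drd2, -0.11 to 0.13 for Drd4, -0.10 to 0.024 for Hrh2, -0.41 to 0.13 for Htr1a, -0.080 to 0.12 for Htr1d, -0.045 to 0.23 for Htr3a, -0.087 to 0.0061 for Htr5b and -0.17 to 0.0081 for Htr7. The cause was not tested. Signals near the floor of 36.8 limit the 1 h values of Chrm1 and Chrna7.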
